A study of Arabidopsis thaliana with 6 samples.

Results

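The C-repeat binding factors CBF1, CBF2 and CBF3 and 7 genes that they are known to activate in the cold were followed through a short heat treatment given in darkness. The 10 loci were fixed by name, as CBF1, CBF2, CBF3, COR15A, COR15B, COR47, ERD10, RD29A, KIN1 and KIN2, and were matched to the arrays by Entrez Gene number. They are 10 of the 21974 loci with a probe set and were read by 9 of the 22746 probe sets tested, a probe set being a group of short oligonucleotides that report on a transcript. Of these, 8 probe sets point to a single locus and 1 is shared by KIN1 and KIN2, which it cannot tell apart.

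The heat group was 3 Affymetrix arrays of Col-0 Arabidopsis thaliana seedlings held at 37 °C for 30 min in the dark, and the control group was 3 arrays of Col-0 seedlings kept in the dark with no heat. All seeds had 72 h of cold (4 °C) in the dark before growth on Murashige and Skoog medium at 23 °C with a 16 h day and an 8 h night. The study asked how heat and light signalling interact, and its light arms were not analysed here. The series design gives an age of 10 days, whereas the sample labels give 19, 20 and 21 days for heat replicates 1 to 3 and 16, 17 and 18 days for control replicates 1 to 3, so labelled age and group run together.

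CBF proteins are transcription factors of the AP2/ERF family. Cold induces them within a short time, and they bind the C-repeat or dehydration-responsive element in the promoters of cold-regulated genes, many of which encode very hydrophilic proteins that protect membranes and other proteins when cells lose water. Several of these target genes also carry elements that respond to abscisic acid, the hormone of drought. The DREB2 factors, which also bind the dehydration-responsive element, belong to the dehydration and heat responses.

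After 30 min at 37 °C the CBF genes read in the lower part of the arrays, as in the controls. Of their targets, 2 were higher, the dehydrins COR47 and ERD10. COR47 was 2.68-fold and ERD10 2.87-fold higher after heat. The shared KIN1/KIN2 probe set was 2.16-fold higher with wide replicate spread and did not pass the test, and COR15A, COR15B, RD29A and the 3 CBF factors did not pass either. In all, 2 of the 9 probe sets rose and 0 fell at an adjusted p of 0.05 (limma, Benjamini-Hochberg over all probe sets), beside 2.34% of all probe sets called higher and 4.00% called lower. With no adjustment, 3 of the 9 had a limma p under 0.05, beside 4859 of all 22746 probe sets, and 0 of the 3 were lower. The median difference over the 9 was 0.21 on the log2 scale, beside -0.011 over all probe sets. Values are the authors' log2 expression values, and a difference is the mean of the heat arrays minus that of the control arrays.

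Over all probe sets, 533 were higher and 909 lower after heat. The excess of lower calls depended on the scaling of the arrays. With the arrays centred on their medians the counts were 671 and 679, after cyclic loess 713 and 688. After quantile normalization they were 677 and 871. Without control replicate 2 these counts were 1008 and 2719, and without any single other array the lower count was between 275 and 493. The array medians lay between 2.78 and 2.94, and Pearson's r was 0.989 to 0.991 among heat arrays and 0.976 to 0.988 among control arrays. The treatment was seen in HSP101, a chaperone that dissolves protein aggregates, and HSFA2, a heat shock factor, which rose by 8.19 (SE 0.23, limma adjusted p = 6.08e-07) and 7.64 (SE 0.27, limma adjusted p = 2.53e-06). The 5 shoot markers were high on every array, with a summed level of 13.56 to 13.67 in heat and 13.66 to 13.77 in control on the log2 scale, and none of them passed the test. The 8 root markers also had none that passed and varied more, with summed levels of 6.38 to 7.24 in heat and 6.79 to 8.29 in control. The part of root share in the results below was not tested. In such whole seedlings, fewer cells of a type and less RNA per cell cannot be told apart.

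**Figure D1:**
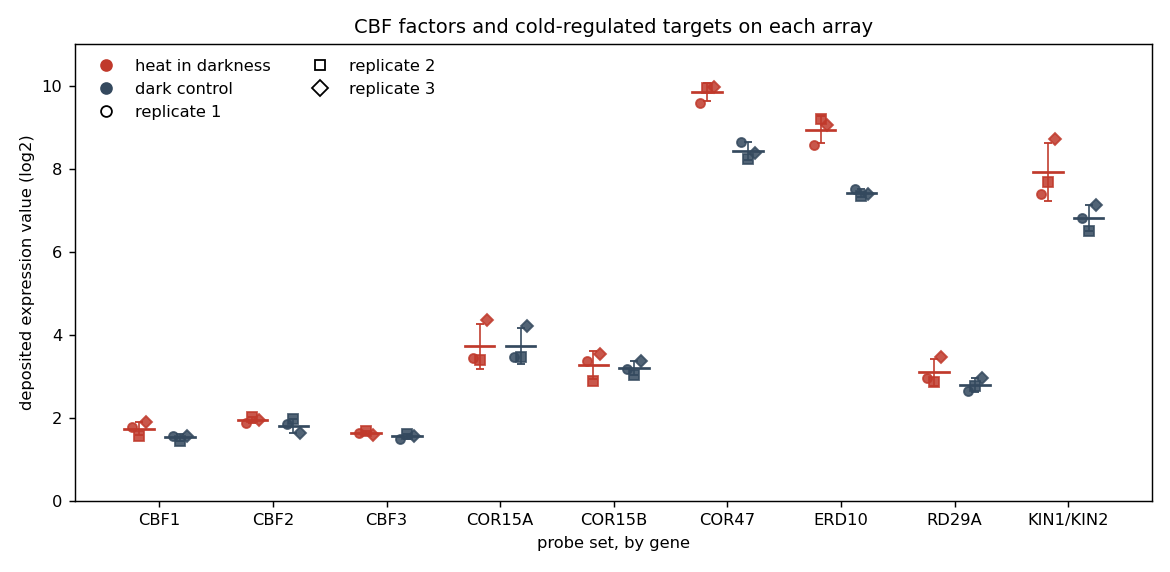
Deposited log2 value of each of the 9 probe sets (vertical axis) by gene (horizontal axis), with the heat arrays in red on the left of each pair and the dark control arrays in blue-grey on the right. Marker shape gives the replicate number, bars the mean and SD of 3 arrays. The groups are apart for COR47, ERD10 and KIN1/KIN2 and overlap for the other 6 probe sets.

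CBF1 (AT4G25490), also called DREB1B, read 1.77, 1.56 and 1.89 in heat replicates 1 to 3, against 1.57, 1.44 and 1.57 in control replicates 1 to 3. Heat replicate 2 lay within the range of the controls. The difference was 0.21 (SE 0.12, 95% interval -0.074 to 0.50, limma adjusted p = 0.372). CBF2 (AT4G25470), or DREB1C, read 1.88, 2.02 and 1.95 in heat and 1.84, 1.96 and 1.63 in control, a difference of 0.14 (SE 0.12, interval -0.14 to 0.43, limma adjusted p = 0.552). CBF3 (AT4G25480), or DREB1A, read 1.63, 1.67 and 1.58 in heat and 1.48, 1.62 and 1.55 in control. Its difference was 0.076 (SE 0.10, interval -0.16 to 0.32, limma adjusted p = 0.709), and it turned to just under 0 after quantile normalization or cyclic loess.

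All 3 CBF probe sets had overlapping groups, as did 16774 of all 22746 probe sets. The upper ends of the intervals, on the linear scale, were 1.41-fold for CBF1, 1.35-fold for CBF2 and 1.24-fold for CBF3. Their heat means stood at the 17.3th percentile of all probe sets for CBF1, the 27.4th for CBF2 and the 11.4th for CBF3, and their control means at the 10.4th, the 24.0th and the 11.5th in the same order of genes. No detection calls came with the values, so readings this low cannot be told from background, and a small change in transcripts present at such levels may not be visible. The CBF proteins are also close in sequence, and cross-hybridization between their probe sets was not tested.

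COR47 and ERD10 encode acidic dehydrins, proteins of the late embryogenesis abundant group that gather in water-stressed cells and can protect membranes and enzymes. COR47 (AT1G20440) read 9.59, 9.95 and 9.97 in heat replicates 1 to 3, against 8.65, 8.22 and 8.37 in control replicates 1 to 3. Every heat array was above every control array. The means were 9.83 ± 0.22 in heat and 8.41 ± 0.22 in control (SD, n = 3 arrays per group), and COR47 rose by 1.42 (SE 0.16, 95% interval 1.05 to 1.80, limma adjusted p = 0.00213).

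ERD10 (AT1G20450) was named for its early induction by dehydration and is also known to prevent protein aggregation in vitro. It read 8.57, 9.19 and 9.05 in heat and 7.52, 7.35 and 7.38 in control, again with no overlap between the groups. The means were 8.94 ± 0.32 in heat and 7.42 ± 0.10 in control (SD, n = 3 arrays per group), and the gene rose by 1.52 (SE 0.17, 95% interval 1.12 to 1.92, limma adjusted p = 0.00211). For both genes heat replicate 1 was the lowest of the heat arrays and control replicate 1 the highest of the control arrays. The summed root markers moved the same way within each group, at 6.38, 7.19 and 7.24 in heat replicates 1 to 3 and 8.29, 6.79 and 7.55 in control replicates 1 to 3, and COR47 had their order of arrays in each group. That sum is taken on the linear scale and rests mostly on the brightest root markers, PHT1;1, CASP1 and TIP2;3. Not all of the dimmer markers moved this way. PRP1 read 1.77, 1.69 and 1.65 in heat replicates 1 to 3 and 1.65, 1.71 and 1.84 in control replicates 1 to 3. Between the groups the root sum had its highest array in the controls. The same-numbered differences for COR47 were 0.94, 1.73 and 1.61 and those for ERD10 1.05, 1.84 and 1.67. In the authors' deposited table, the linear ratios of heat over control for ERD10 were 2.068 for replicate 1, 3.589 for replicate 2 and 3.188 for replicate 3.

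Neither call was lost when any single array was left out, with adjusted p up to 0.0185 for COR47 and 0.0194 for ERD10 (limma). With labelled age as a covariate, which leaves little information on the group, the differences were 1.35 for COR47 and 1.27 for ERD10 and the calls ended (limma adjusted p = 0.442 and 0.525). The exact two-sided permutation test gave p = 0.1 for each, the smallest that 3 arrays against 3 allow. Both genes were already bright in the controls, at the 97.7th percentile for COR47 and the 95.3th for ERD10.

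KIN1 (AT5G15960) and KIN2 (AT5G15970), the second also known as COR6.6, encode small hydrophilic proteins induced by cold and abscisic acid. Their shared probe set read 7.39, 7.67 and 8.70 in heat replicates 1 to 3, against 6.80, 6.50 and 7.13 in control replicates 1 to 3. The groups did not overlap, as for COR47 and ERD10, which makes 3 of 9 probe sets with all heat arrays above all controls, beside 10.4% of all probe sets. The heat arrays spanned 1.31 and the controls 0.64. The difference was 1.11 (SE 0.33, 95% interval 0.33 to 1.88), which did not pass (limma adjusted p = 0.104). Heat replicate 3 stood highest, and without it the difference was 0.72. With labelled age as a covariate it turned to -0.12. Over the arrays left out in turn the adjusted p from limma ran from 0.0948 to 0.218. KIN1/KIN2 passed in 0 of the 15 alternatives tried. Its lowest adjusted p from limma was 0.0568, with the arrays centred on their medians.

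COR15A (AT2G42540) and COR15B (AT2G42530) encode proteins of the chloroplast stroma that stabilize the inner envelope membranes during freezing. COR15A read 3.43, 3.39 and 4.35 in heat replicates 1 to 3, against 3.47, 3.47 and 4.22 in control replicates 1 to 3. Replicate 3 was the high array in both groups, and the other 4 arrays lay close together. The mean was 3.72 in each group, with an SD of 0.55 in heat and 0.43 in control. The difference was 0.0018 (SE 0.31, 95% interval -0.72 to 0.72, limma adjusted p = 0.998). COR15B read 3.37, 2.89 and 3.53 in heat and 3.17, 3.04 and 3.37 in control. Here too replicate 3 was the highest in each group and replicate 2 the lowest. The difference was 0.072 (SE 0.18, interval -0.36 to 0.50, limma adjusted p = 0.851). The sign of both differences turned when heat replicate 3 was left out, to -0.31 for COR15A and -0.062 for COR15B.

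RD29A (AT5G52310), also called COR78 or LTI78, encodes a hydrophilic protein whose promoter is a standard reporter of cold, drought and salt stress. It read 2.95, 2.85 and 3.47 in heat and 2.64, 2.77 and 2.96 in control. Heat replicate 3 alone was clear of the controls by more than their range of 0.31, and the other heat arrays lay at or below the highest control. The difference was 0.30 (SE 0.18, 95% interval -0.13 to 0.72, limma adjusted p = 0.396). Over the alternatives tried, RD29A ranged between -0.33 and 0.43 and passed in 0 of 15.

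**Figure D2:**
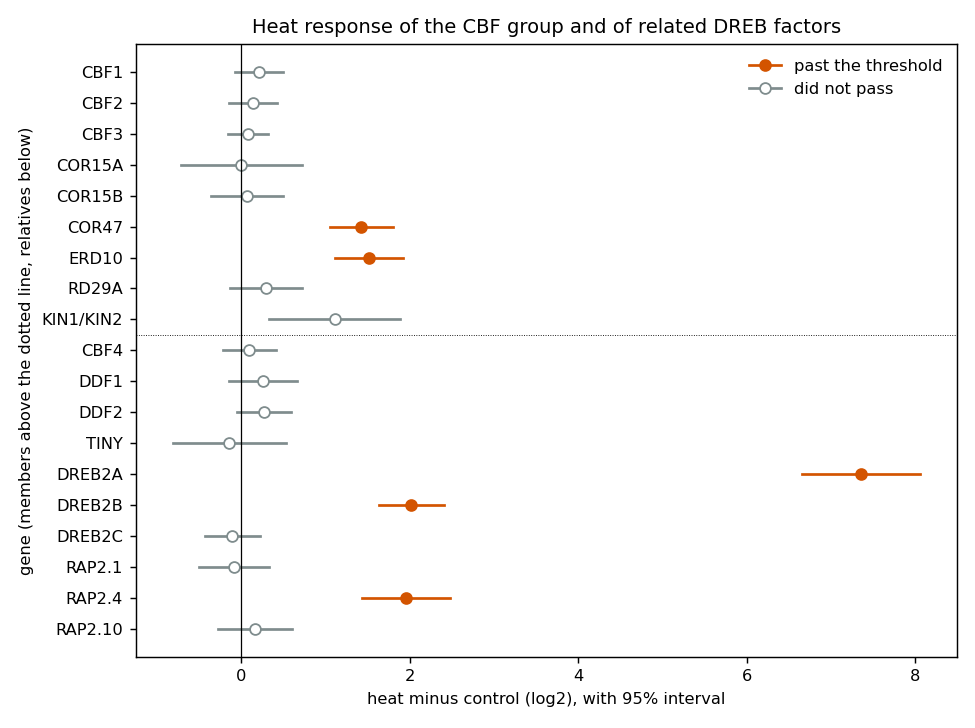
Difference between the mean of 3 heat arrays and the mean of 3 control arrays (horizontal axis, log2) with limma's 95% interval, for the 9 probe sets of the CBF group above the dotted line and for 10 related DREB factors below it. Filled orange points passed the test, which in the CBF group are COR47 at 1.42 and ERD10 at 1.52, while DREB2A lies at 7.36.

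The CBF factors share their DNA-binding domain with the DREB2 factors. DREB2A, which carries dehydration and heat signals, read 9.89, 9.72 and 9.89 in heat replicates 1 to 3, against 2.78, 1.71 and 2.93 in control replicates 1 to 3. It rose by 7.36 (SE 0.30, limma adjusted p = 5.82e-06). Its homologue DREB2B rose by 2.02 (SE 0.17) and RAP2.4, a more distant DREB factor, by 1.96 (SE 0.22, limma adjusted p = 0.00221). With labelled age as a covariate DREB2B was 2.16 (SE 0.38) and RAP2.4 2.03 (SE 0.51), and both calls ended (limma adjusted p = 0.11 and 0.336). The call of DREB2A did not end (limma adjusted p = 0.00749). These were the 3 that rose among 10 relatives, and 0 fell. For this list and those below, the shares over all probe sets were 2.34% higher and 4.00% lower. The nearest relatives of the CBF genes did not pass. CBF4, a drought-induced copy also called DREB1D, read 1.97 ± 0.10 in heat and 1.88 ± 0.21 in control, DDF1 read 1.73 ± 0.27 and 1.47 ± 0.20, and DDF2 read 1.84 ± 0.078 and 1.57 ± 0.21 in the same order (SD, n = 3 arrays per group). TINY differed by -0.14, RAP2.1 by -0.085 and RAP2.10 by 0.17, and none of these passed. DREB2C, on a shared probe set, read 1.34 ± 0.10 in heat and 1.44 ± 0.22 in control (SD, n = 3 arrays per group), at the 1.34th percentile of all probe sets in heat and the 6.63th in control, and did not pass either, with a difference of -0.11. Of the 7 relatives that did not pass, RAP2.10, DDF1 and DDF2 kept their sign in each alternative tried and the other 4 did not. The difference between the CBF and DREB2 responses was not tested as such.

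The next list held regulators known to act upstream of the CBF genes, among them transcription factors, a photoreceptor, kinases and ligases. Of 23 listed, 22 had a probe set, of which 3 rose, 3 fell and 16 did not pass, with a median of -0.0044. ICE1, a bHLH factor that activates CBF genes in the cold, read 4.49, 4.07 and 4.11 in heat, against 5.07, 4.91 and 5.24 in control. No heat array reached the lowest control, and ICE1 fell by 0.85 (SE 0.15, limma adjusted p = 0.0188). Its paralogue ICE2 fell by 0.76 (SE 0.15, limma adjusted p = 0.0293). The red-light receptor PHYB fell by 0.74 (SE 0.16, limma adjusted p = 0.0398).

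Among the clock and light factors that bind or regulate CBF genes, PRR7, a repressor, read 4.81, 4.81 and 4.86 in heat and 1.68, 1.80 and 1.93 in control. It rose by 3.03 (SE 0.11, limma adjusted p = 3.14e-06). CCA1, an activator of CBF genes in the morning, rose by 0.76 (SE 0.13, limma adjusted p = 0.0143). PIF4, which represses CBF genes in long days, rose by 0.63 (SE 0.12, limma adjusted p = 0.0213). Their control means were low, 1.94 for CCA1 and 2.18 for PIF4, at the 29.2th and 36.1th percentiles of all probe sets. With no detection calls, readings this low cannot be told from background. MYB15, a repressor, read 1.83 ± 0.042 in heat and 1.66 ± 0.15 in control, and CAMTA3, a calmodulin-binding activator of CBF2, read 4.20 ± 0.10 and 4.22 ± 0.43 in the same order (SD, n = 3 arrays per group). Neither passed. Of the calls in this list only that of PRR7 held in every alternative. The calls of ICE1, ICE2, PHYB, CCA1 and PIF4 each ended with some single array left out, with adjusted p up to 0.0948, 0.122, 0.131, 0.0618 and 0.0855 in that order (limma). The arrays whose absence ended a call were control replicates 1 and 3 and heat replicates 2 and 3 for ICE1 and PHYB, control replicate 3 and any single heat array for ICE2, control replicate 3 and heat replicates 2 and 3 for CCA1, and control replicates 1 and 3 and heat replicates 1 and 3 for PIF4. The calls of ICE2 and PHYB also ended after quantile normalization (-0.60 and -0.59) and cyclic loess (-0.59 and -0.58), and that of PHYB with the arrays centred on their medians (-0.63). With labelled age as a covariate the calls of all 5 ended (limma adjusted p of 0.569 or more). The differences were then -0.69 for ICE1, -1.06 for ICE2, -0.50 for PHYB, 0.85 for CCA1 and 0.52 for PIF4.

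**Figure D3:**
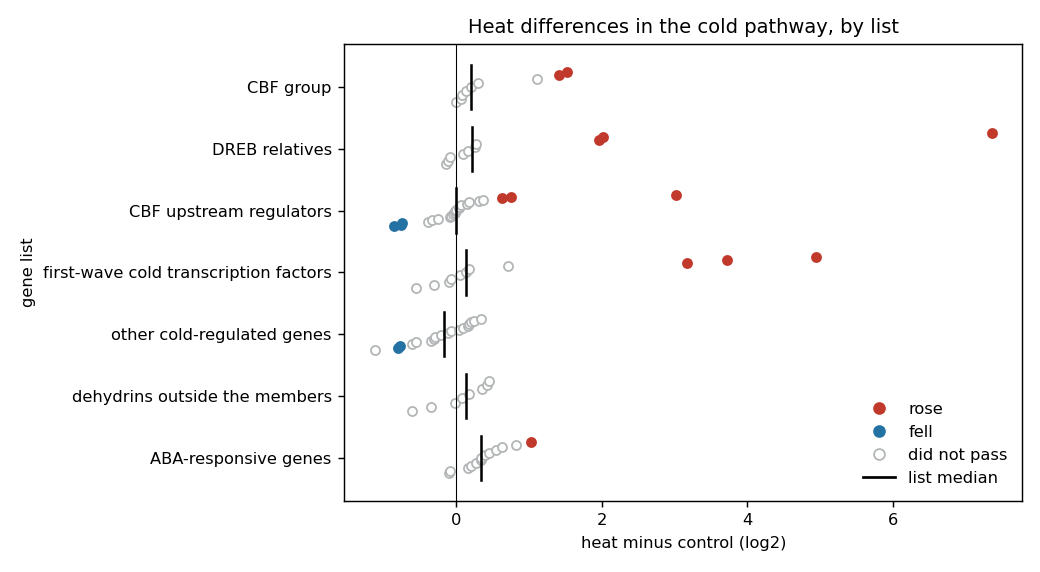
Difference between heat and control (horizontal axis, log2) of each probe set in the CBF group and in 6 related lists (rows), coloured by limma's call, with the list median as a black line. The CBF group has 2 of 9 risen, and the 3 risen first-wave factors lie between 3.17 and 4.95.

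Cold switches on a first wave of transcription factors together with the CBF genes. Of 11 such factors other than CBF1 to CBF3, 3 zinc finger genes rose and 0 fell, with a list median of 0.14. ZAT12, which limits CBF expression in the cold, read 8.14, 8.09 and 7.91 in heat, against 3.16, 2.84 and 3.29 in control, and rose by 4.95 (SE 0.15, limma adjusted p = 7.83e-07). ZAT6 rose by 3.73 (SE 0.21) and ZAT10 by 3.17 (SE 0.27, limma adjusted p = 0.000472). With labelled age as a covariate ZAT10 was 2.41 and its call ended (limma adjusted p = 0.231), while ZAT12 and ZAT6 still passed. The other 8 did not pass.

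Other genes known to be raised by cold held 0 rises and 2 falls among 18, with a median of -0.16. Over all probe sets the shares were 2.34% and 4.00%. CSP2, a cold shock domain protein that melts RNA structures, read 5.75, 6.04 and 5.89 in heat, against 6.80, 6.70 and 6.59 in control, and fell by 0.80 (SE 0.12, limma adjusted p = 0.00877). GRP7, a glycine-rich RNA-binding protein under clock control, fell by 0.77 (SE 0.14, limma adjusted p = 0.0202). The call of GRP7 ended when heat or control replicate 1 or 3 was left out (limma adjusted p up to 0.0755). Both calls ended with labelled age as a covariate (limma adjusted p = 0.773 for CSP2 and 0.537 for GRP7). The differences were then -0.75 for CSP2 and -1.03 for GRP7.

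Of the 8 other dehydrins measured, 0 passed, with differences between -0.60 and 0.45 and a median of 0.13. ERD14, the closest of these to ERD10 and COR47 in kind, read 7.82 ± 0.17 in heat and 7.65 ± 0.49 in control (SD, n = 3 arrays per group). LTI30, the dehydrin with the largest difference, stood at 5.15 ± 0.67 and 5.74 ± 0.98 in the same order and had overlapping groups. Whether COR47 and ERD10 differ from the other dehydrins was not tested.

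Abscisic acid genes were examined because they share stress elements with the CBF targets. Of 14, 13 had a probe set, 1 rose and 0 fell, with a median of 0.35. The difference was above 0 for 11 of the 13, beside 48.3% of all probe sets. For 5 of them every heat array was above every control array, beside 10.4% of all probe sets. Whether the list differs from all probe sets was not tested. ABF3, a bZIP factor that binds abscisic acid response elements, rose by 1.03 (SE 0.16, limma adjusted p = 0.0103). The call ended without heat replicate 2 (limma adjusted p = 0.0564). It also ended with labelled age as a covariate, at a difference of 0.78 (limma adjusted p = 0.917). RAB18, a dehydrin gene that abscisic acid induces strongly, read 3.85 ± 0.44 in heat and 3.40 ± 0.33 in control, and RD29B read 3.56 ± 0.26 and 3.23 ± 0.35 in the same order (SD, n = 3 arrays per group). Neither passed (limma adjusted p = 0.354 for RAB18 and 0.395 for RD29B).

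In the TAIR10.1 gene table the 10 genes fall into 5 groups of neighbours. COR47 and ERD10 lie side by side on chromosome 1, COR15B and COR15A on chromosome 2, CBF2, CBF3 and CBF1 in a row on chromosome 4, and KIN1 and KIN2 on chromosome 5, where RD29A follows RD29B. COR47 and ERD10 rose by 1.42 and 1.52, COR15A and COR15B differed by 0.0018 and 0.072, the CBF genes by 0.076 to 0.21, and RD29A and RD29B by 0.30 and 0.34.

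The genes just outside these groups did not pass the test. AT1G20430, next to COR47, differed by -0.41 (SE 0.12, limma adjusted p = 0.0888), and the other flank of that pair, AT1G20460, had no matched probe set. AT2G42520 beside COR15B differed by 0.0087. On the flanks of the CBF genes, ABCB28 differed by 0.38 and the splicing factor gene RS40 by 0.17. AT5G15980 beside KIN2 differed by -0.46, AT5G15950 beside KIN1, on a shared probe set, by 0.34, and CYP96A4 beside RD29A by -0.11.

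**Figure D4:**
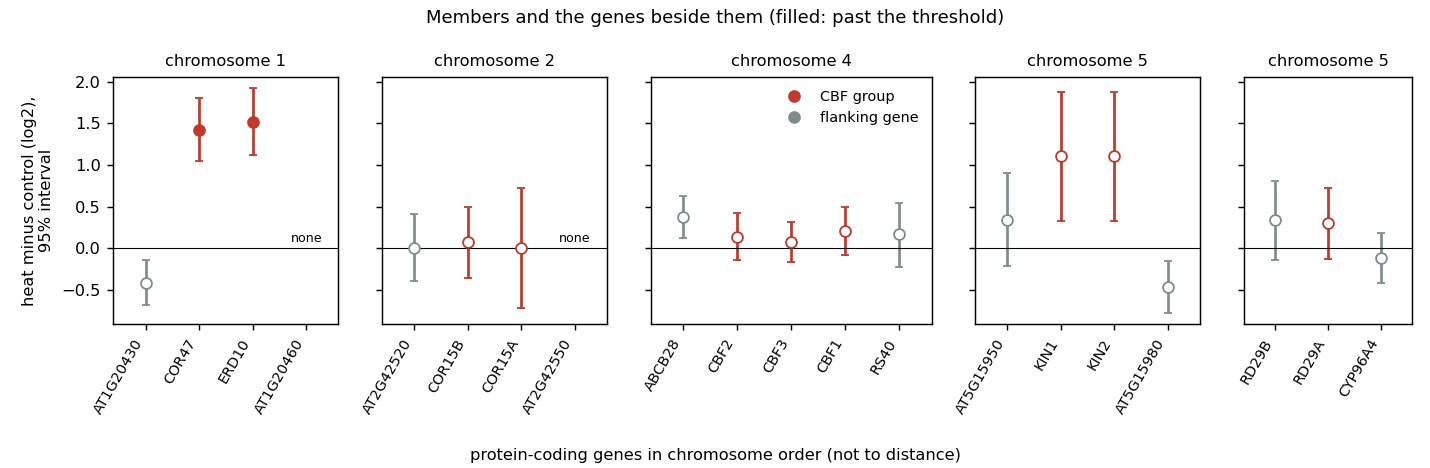
Difference between heat and control (vertical axis, log2) with limma's 95% interval for the genes of the CBF group (red) and the protein-coding genes beside them (grey), in chromosome order and not to distance. Filled points passed the test, which are COR47 and ERD10 alone, KIN1 and KIN2 show the same shared probe set, and "none" marks a gene with no matched probe set.

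ERD10 had the largest moderated t of the group, and 3 genes outside it followed its values most closely over the 6 arrays among 4159 probe sets whose range was at least 0.5 times its own. AT5G03560 had a Pearson's r of 0.9963, RHA2B, a RING-type ubiquitin ligase, 0.9963 and MSL6, a mechanosensitive channel relative, 0.9948. RHA2B read 7.84 ± 0.45 in heat and 4.80 ± 0.23 in control (SD, n = 3 arrays per group). Such values rest largely on the step between the groups, which all these arrays share.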

How the data were processed

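Total RNA of 6 samples was measured on Affymetrix arrays. The deposited values are log2 expression per probe set, made by the authors with RMA per the submitters' processing notes. Neither the RMA software nor the annotation build is given in the sources used here. The authors' table also holds linear ratios of same-numbered arrays, which matched the deposited log2 values to a relative gap of 6.26e-05. Arrays have no read depth, and the number of arrays limits the precision. The 64 control probe sets were left out. Loci were matched through Entrez Gene identifiers and the TAIR10.1 RefSeq gene table (20482 of 20653 single-gene probe sets matched), taking the brightest single-locus probe set.

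Heat was compared with control in limma 3.58.1 (R 4.3.3, moderated by eBayes, with group alone in the model, two-sided, Benjamini-Hochberg over 22746 probe sets, threshold 0.05). SE and 95% intervals are limma's moderated ones. The script was tested on simulated data. Permutation tests used scipy 1.17.1. Nothing in the labels shows that replicates were separately grown plants, so the p-values reflect only how these arrays spread, possibly for technical reasons. Members and lists were chosen with earlier results of these data known. Genes named are all members, all DREB relatives, HSP101 and HSFA2, RD29B, RAB18, ICE1, MYB15 and CAMTA3, up to 3 rises and 3 falls per other list, or its largest difference where none passed, and the 3 genes most like the member of largest moderated t. ERD14 and the flanking genes were named after their values were seen. Alternatives were 3 normalizations, 2 filters on dim probe sets (the 25th percentile and the median), trended and robust moderation, the replicate number as a block, labelled age as a covariate, and each array left out.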

Additional observations from a re-analysis of the deposited data

How the results depend on the processing

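COR47 and ERD10 were the 2 members that passed as higher, and 0 passed as lower, under every alternative except labelled age as a covariate, where 0 rose. With that covariate 129 probe sets were higher and 10 lower in all. Without one array each, between 371 and 1008 probe sets were higher and 275 to 2719 lower, and the 9 members kept 2 rises and 0 falls, with a median between 0.14 and 0.30. The median over members was 0.70 with the dim filter at the median, which kept 6 of them and none of the CBF genes. Each member locus had 1 matching probe set, so taking all of them changed nothing. Replicate numbers did not pair the arrays over all probe sets. Same-numbered deviations from the group means correlated at -0.260, -0.235 and -0.244, and with the replicate number as a block 396 probe sets were higher and 410 lower, with 2 members risen. Under that block CCA1, PIF4, ICE1, ICE2, PHYB, CSP2, GRP7 and ABF3 no longer passed. Among the members, replicate 3 was the highest array of each group for COR15A, COR15B, RD29A and KIN1/KIN2. With the block their SE fell, as from 0.31 to 0.13 for COR15A. For the other members it rose, as from 0.16 to 0.19 for COR47. Centring the arrays on their medians moved the median of all probe sets to 0.10, against -0.011. Single genes that changed sign had not passed in the first place. CBF3 was -9.4e-06 after quantile normalization and -0.0048 after cyclic loess. With age as a covariate COR15A was -1.26, COR15B -0.20, RD29A -0.33, KIN1/KIN2 -0.12 and TINY 0.24. With each array left out in turn, COR15A ran between -0.31 and 0.25 (-0.12 with either of control replicates 1 and 2 left out), COR15B between -0.062 and 0.26 (-0.0057 without control replicate 2), CBF4 between -0.015 and 0.19, TINY between -0.35 and 0.20, DREB2C between -0.19 and 0.017, RAP2.1 between -0.22 and 0.063 and CAMTA3 between -0.22 and 0.20. After quantile normalization and loess TINY was 0.019 and 0.021 and CAMTA3 0.15 in both. After centring DREB2C was 0.0024, RAP2.1 0.026 and CAMTA3 0.091. The causes were not tested. Low signal limits what can be seen of the CBF genes.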

Other observations

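LTI30, a cold-induced dehydrin outside the CBF group, followed the root marker CASP1, a protein of the endodermal barrier, array by array, a pair chosen after the values were seen. LTI30 read 4.37, 5.59 and 5.47 in heat replicates 1 to 3, against 6.69, 4.73 and 5.81 in control replicates 1 to 3. CASP1 read 4.10, 5.64 and 5.49 in heat, against 6.73, 4.61 and 6.26 in control. The order of the 6 arrays was the same for both genes. None of the other root markers had that order, either over the 6 arrays or within both groups. Control replicate 1 was the lowest control for the root markers NRT2.1 and PRP1 alone. ERD10 had the order of CASP1 within each group, though not over the 6 arrays together. The part of root share in the LTI30 and ERD10 values was not tested.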
